A study of Mus musculus with 12 samples.

Results

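The first step of retinoic acid differentiation was followed in the cathepsin L knockdown line (shCTSL) by comparing its 2 embryoid body libraries from Day 2 with its 2 libraries of undifferentiated cells from Day 0. These are 4 of the 12 RNA-seq libraries of the series, which also holds shCTSL at Day 4 and the scrambled control line (shSC) at the same 3 time points, with 2 replicates in each of 6 groups. All are CCE-Nanog-GFP mouse embryonic stem cells (mESCs), a line that carries a GFP reporter of Nanog, sorted for GFP before the experiments. The shCTSL cells, genotype CTSL KD in the labels, stably carry a lentiviral shRNA against Ctsl after drug selection, and the shSC cells, titled scr and labelled WT, carry a scrambled shRNA. The labels do not give which of the shRNAs against Ctsl the sequenced cells carry. Day 0 cells were mESCs, and Day 2 cells were embryoid bodies (EBs) grown without LIF and with all-trans retinoic acid (RA). Because the shRNA is present on both days, the Day 2 against Day 0 comparison describes differentiation within the knockdown line, and its genes were kept where both Day 2 libraries moved the same way.

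mESCs hold a network of transcription factors, with Pou5f1, Sox2 and Nanog at its centre, that keeps genes of the germ layers silent while LIF is present. RA enters the cell, binds its nuclear receptors (RAR with RXR) on response elements in DNA and switches on a set of direct targets that includes its own degrading enzymes and the 3′ genes of the Hox clusters. In EBs, which aggregate in suspension, this is followed by genes of endoderm, mesoderm and neural cells. Cathepsin L is a lysosomal cysteine protease that can also cleave histone tails.

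The 4 libraries hold 15627577 and 11171111 counted reads at Day 0 and 15415364 and 21213919 at Day 2, replicate 1 before replicate 2. Levels are given in that order as normalized CPM, counts scaled by library size. Of 24495 genes in the deposited counts, 15532 passed the filter on low counts and were tested with the quasi-likelihood method of edgeR over all 12 libraries. A gene is called at an adjusted p under 0.05 and a change of at least 1.5-fold. A called gene is said to agree where both Day 2 libraries lie beyond both Day 0 libraries and each differs by at least 1.5-fold from the Day 0 mean. Replicates are biological per the study's methods, and the p-values cover the spread between these libraries.

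The Day 2 libraries of shCTSL stand apart from each other. The SD of the log2 ratio of replicate 1 to replicate 2 over genes was 0.604, against 0.178 to 0.269 in the other 5 groups, and the ratio fell with exonic length (Spearman's rho of −0.586 across 15154 genes that share these libraries, given as a description). With the genes in 10 bins of like number by exonic length, replicate 1 had a median log2 ratio of 0.65 over replicate 2 in the shortest bin and one of −0.61 in the longest. Replicate 1 moved away from its Day 0 mean by a median of 0.35 in the shortest bin and −0.30 in the longest. Replicate 2 moved by −0.30 and 0.23, the direction also seen in both shSC Day 2 libraries (−0.28 and −0.25, then 0.11 and 0.13). The 45S ribosomal transcript Rn45s took 3.43% of the counts of Day 2 replicate 1 and 0.553% of those of replicate 2. Whether RNA quality or library preparation had a part in this was not tested.

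**Figure D1:**
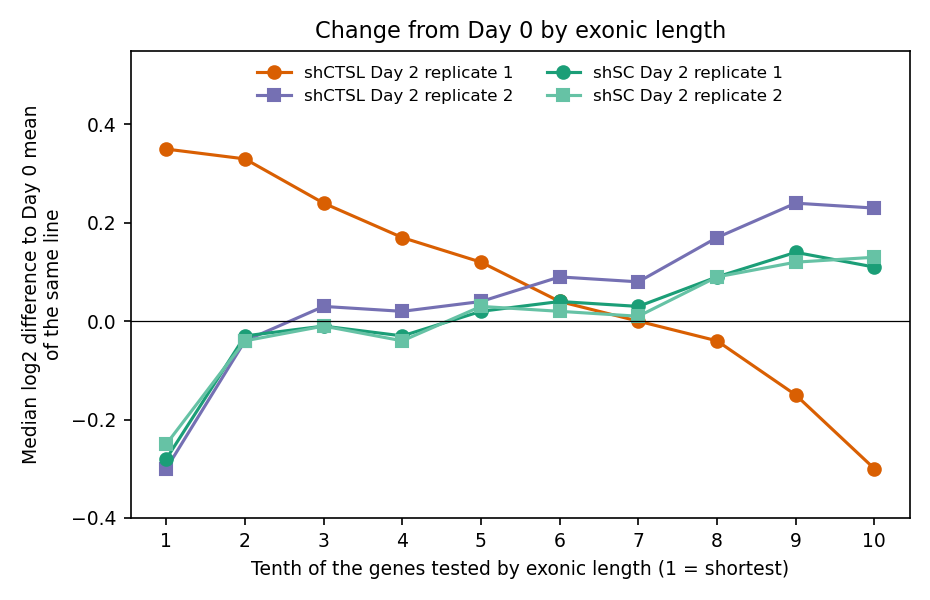
Median log2 difference to the Day 0 mean of the same line (y axis) in each of 10 bins of the genes tested, ordered by exonic length (x axis, 1 = shortest), with 1 line for each Day 2 library. shCTSL replicate 1 runs from 0.35 to −0.30, and the other 3 libraries run from between −0.30 and −0.25 up to between 0.11 and 0.23.

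The target of the shRNA, Ctsl (mm9, chromosome 13, bases 64464522 to 64471614), had 39.24 and 37.5 CPM in the Day 0 libraries of shCTSL and 210.6 and 155.5 CPM at Day 2. In shSC it had 137.2 and 147.3 CPM at Day 0 and 369 and 391.4 CPM at Day 2, so that on each day both knockdown libraries lay below both control libraries. Within shCTSL the transcript rose 4.77-fold from Day 0 to Day 2 (log2 fold change 2.25, SE 0.15, adjusted p = 8.05e-07), and at Day 2 it lay above the Day 0 level of shSC in both libraries. The increase in shSC was 1.42 on the log2 scale. The difference of 0.83 between the lines was not called (SE 0.20, adjusted p = 0.39).

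From Day 0 to Day 2 of shCTSL, 8627 genes were called, 55.5% of those tested, with 4801 higher (30.9%) and 3826 lower (24.6%). In 6926 of them (44.6% of the genes tested) both Day 2 libraries agreed, and of these 3963 rose (25.5%) and 2963 fell (19.1%). These last 2 shares are the background against which each group of genes is read. Agreement held for 80.3% of the called genes, against 93.3% in shSC, where 8477 genes were called (54.6%; 29.3% higher and 25.3% lower) and 7909 agreed (50.9%). Large changes were mostly increases: 2088 agreeing genes were at least 4-fold higher and 547 at least 4-fold lower, and 659 and 66 were at least 16-fold higher and lower. No count was present in either Day 0 library for 150 of the agreeing genes that rose. Over all genes tested the median log2 fold change was 0.079, with quartiles of −0.653 and 1.098. Without Day 2 replicate 1 the number of called genes was 8979, and without replicate 2 it was 9170. For the 6926 agreeing genes, the agreement rule already requires each Day 2 library to lie beyond both Day 0 libraries. Their recovery in these fits is therefore no further result.

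**Figure D2:**
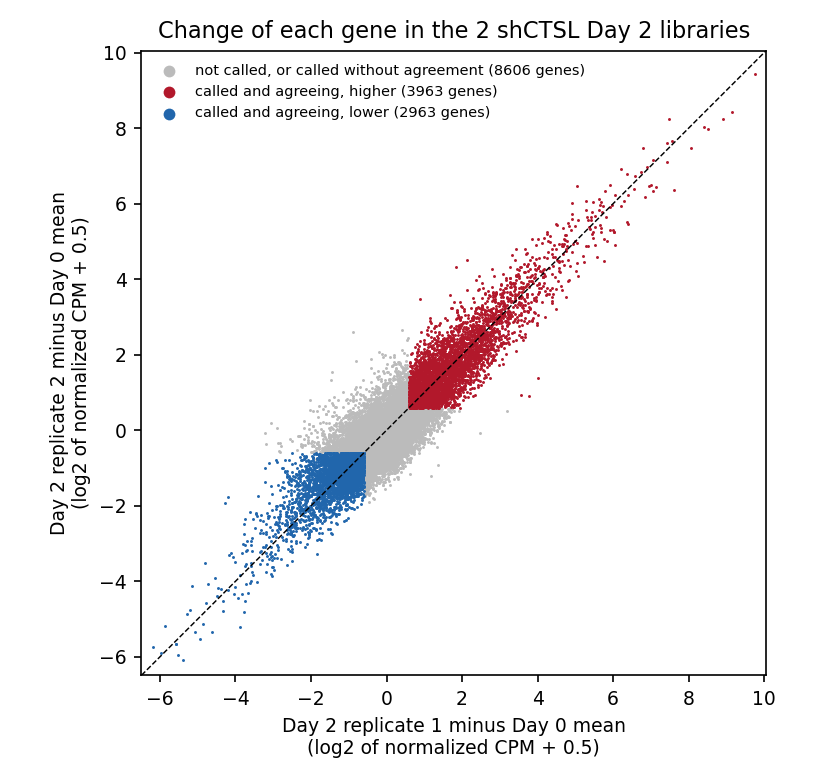
Each point is 1 of the 15532 genes tested, placed by its log2 difference to the Day 0 mean in shCTSL Day 2 replicate 1 (x axis) and replicate 2 (y axis). The 3963 agreeing genes that rose and the 2963 that fell lie in opposite corners along the diagonal, and the other genes fill the centre and the band beside it.

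The stem cell network was lower at Day 2. Of 23 core and naive pluripotency factors, all tested, 19 fell with both Day 2 libraries agreeing (82.6%) and none rose, with a median log2 fold change of −2.51. Pou5f1, which encodes Oct4, had 1496 and 1444 CPM at Day 0 and 388.2 and 242.9 CPM at Day 2. Sox2, its DNA-binding partner, had 771.1 and 713.8 CPM and then 161.5 and 168.5 CPM. Nanog had 572.1 and 537.6 CPM and then 98.95 and 96.54 CPM. The days do not overlap in any of these, which is part of the agreement rule. The decreases were 4.66-fold (log2 fold change −2.22, SE 0.21, adjusted p = 8.65e-06), 4.5-fold (−2.17, SE 0.12, adjusted p = 2.35e-07) and 5.68-fold (−2.51, SE 0.09, adjusted p = 2.88e-08). Transcripts of the 3 remained present in both Day 2 libraries. In bulk samples fewer cells that express a gene and less RNA per cell cannot be told apart.

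Factors of the naive state fell to differing degrees, from 1.85-fold for Dppa4, 2.04-fold for Dppa2 and 2.74-fold for Klf2 to the larger decreases that follow. Klf4, a target of LIF signalling, went from 288.8 and 286.8 CPM to 23.63 and 24.82 CPM, or 11.9-fold lower (adjusted p = 1.78e-08). Esrrb, an orphan nuclear receptor that sustains self-renewal, went from 812.1 and 828.4 CPM to 67.01 and 106.1 CPM, or 9.46-fold lower. Zfp42, which encodes Rex1, was 9.04-fold lower. The steepest decreases in the list were those of Tdh, the threonine dehydrogenase that mESCs rely on, from 544.7 and 512.5 CPM to 16.55 and 10.85 CPM (38.8-fold), and of Tcl1, a coactivator of Akt, from 90.19 and 79.53 CPM to 2.954 and 1.618 CPM (38.2-fold). That each of these lies below Day 0 in both libraries is part of the agreement rule.

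The 4 remaining members did not fall with agreement. Tbx3 had 236.8 and 233.2 CPM at Day 0 and 123.9 and 299.7 CPM at Day 2, so that its Day 2 libraries lie on either side of Day 0 (log2 fold change −0.15, adjusted p = 0.68). It was a called decrease of 0.92 on the log2 scale without replicate 2 (adjusted p = 2.52e-07) and stood at 0.39 without replicate 1. Gbx2 (140 and 123.9 CPM, then 128.3 and 144.9 CPM) overlapped between the days. Dppa3 had 9.922 and 9.269 CPM and then 13.05 and 5.278 CPM, and it was a called decrease without Day 2 replicate 1 (−0.82, adjusted p = 0.00355). Dppa5a was called lower (−0.83, SE 0.31, adjusted p = 0.036) with 527.7 and 230.1 CPM at Day 2 against 651.8 and 695.2 CPM at Day 0. This call was lost without either Day 0 library (adjusted p = 0.0864 and 0.119) and without Day 2 replicate 2 (−0.35).

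Genes of the formative and primed states, which follow the naive state in the epiblast, were split. Of 15 tested, 5 rose (33.3%) and 7 fell (46.7%) with agreement, against 25.5% and 19.1% of all genes tested. The median log2 fold change of −0.08 became 0.09 without Day 2 replicate 1. Otx2, a factor of the primed epiblast, fell 16.8-fold, from 13.73 and 14.54 CPM to 0.923 and 0.7662 CPM (adjusted p = 3.56e-07). Foxd3 fell 30-fold and Pou3f1, which encodes Oct6, 8.13-fold. Fgf5, a marker of the primed epiblast, rose 6.5-fold to 1.661 and 1.277 CPM (from 0.2984 and 0.1053 CPM, 5 reads in all at Day 0). The neural and epiblast factors Zic2, Sox3 and Sall2 rose 5.11-, 7.87- and 10.7-fold.

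Most genes of the RA pathway rose. Of 23 genes for RA receptors, metabolism and direct targets, all tested, 17 rose with agreement (73.9%) and 3 fell, with a median log2 fold change of 2.78. Among the receptors, Rarb, itself a direct target of RA, went from 0.2238 and 0.2107 CPM to 75.5 and 82.07 CPM, a fitted increase of 350-fold that rests on 5 reads at Day 0 (log2 fold change 8.45, SE 0.23, adjusted p = 5.96e-09). Rara, the receptor present in most cells, went from 70.94 and 74.36 CPM to 123.1 and 144.5 CPM (1.84-fold). Rarg, a receptor expressed in mESCs, fell 3.55-fold from 318.8 and 305.7 CPM to 85.72 and 90.2 CPM (adjusted p = 3.63e-07). Thus each of the 3 receptors took its own course, and that the days do not overlap in them is part of the agreement rule.

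The enzymes that degrade RA rose steeply. Cyp26a1, the main RA hydroxylase, had 1.492 and 1.791 CPM at Day 0 and 1842 and 1477 CPM at Day 2, or 1020-fold more (log2 fold change 9.99, SE 0.24, adjusted p = 4.69e-09). Cyp26b1 went from 0.5222 and 1.685 CPM to 268.9 and 456 CPM (353-fold). Cyp26c1, with 2 reads in all at Day 0, reached 18.15 and 18.69 CPM, a pooled ratio of 211 (95% interval from counting, 58.3 to 1750). Dhrs3, which returns retinaldehyde to retinol, rose 233-fold, from 0.9698 and 0.948 CPM to 250.6 and 200.1 CPM.

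Carriers and other targets rose as well. Stra6, the membrane receptor for retinol uptake, went from 0.2238 and 0.5267 CPM to 147.1 and 167.5 CPM (440-fold, 8 reads at Day 0), and Stra8, a meiotic gene named for its induction by RA, from 1.641 and 1.159 CPM to 914.4 and 566.1 CPM (515-fold). Crabp2, which carries RA to its receptors in the nucleus, rose 50.5-fold. Of the enzymes that make RA, Rdh10, a retinol dehydrogenase of the first step, rose 2.21-fold, from 5.222 and 5.688 CPM to 11.94 and 12.13 CPM (adjusted p = 9.52e-05). None of the 3 Aldh1a genes, for the second step, was a called increase: Aldh1a3 fell from 1.343 and 1.159 CPM to 0 and 0.2554 CPM (adjusted p = 0.002), Aldh1a1 stayed under 1 CPM in the 4 libraries (adjusted p = 0.0652) and was called higher without Day 2 replicate 2 (2.26, adjusted p = 0.0136), and Aldh1a2 had 2.089 and 1.369 CPM and then 1.354 and 1.277 CPM (adjusted p = 0.18). Rxrg, the third decrease, was near 1 CPM at Day 0, and the call did not hold when any of the 4 libraries was left out (adjusted p from 0.0598 to 0.136).

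The RA response element of the best known direct targets is a DR5, 2 copies of a 6-base repeat in the same direction with 5 bases between them. A search of both strands of the 250 bases before each RefSeq start site found a DR5 in 29 of 32851 promoters (0.0883%), which belong to 28 genes. Of these 8 were tested, and 5 rose and 1 fell with agreement, where 25.5% of all genes tested rose and 19.1% fell. Genes silent at Day 0 pass the count filter through their Day 2 counts, so 5 of 8 is no measure of the element. Cyp26a1 and Rarb are among the 5, and their promoters are shown because they carry the element beside increases given above. They are RefSeq sequences of the sense strand placed on mm9, Cyp26a1 at chr19:37772048-37772297 (plus strand) and Rarb at chr14:17407991-17408240 (minus strand). Capitals mark the repeats, which read along the printed strand in Rarb (53 to 37 bases before the start site) and on the opposite strand in Cyp26a1 (32 to 16 bases before it).
Cyp26a1: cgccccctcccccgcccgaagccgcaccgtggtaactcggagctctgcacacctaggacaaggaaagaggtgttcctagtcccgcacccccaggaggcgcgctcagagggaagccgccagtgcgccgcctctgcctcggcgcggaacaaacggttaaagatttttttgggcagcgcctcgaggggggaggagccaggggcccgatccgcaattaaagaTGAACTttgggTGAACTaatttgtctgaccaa
Rarb: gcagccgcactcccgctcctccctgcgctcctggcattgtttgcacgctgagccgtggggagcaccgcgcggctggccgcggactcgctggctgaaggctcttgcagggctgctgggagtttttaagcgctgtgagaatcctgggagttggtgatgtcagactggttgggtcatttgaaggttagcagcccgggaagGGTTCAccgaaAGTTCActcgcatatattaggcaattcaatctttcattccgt
The other 3 of the 5 were Ppbp, Prokr2 and Syndig1, and the decrease was Cfap45. Repeats with 1 or 2 bases between them (DR1 and DR2) were found in 0.164% and 0.174% of promoters. Of 24 and 11 tested genes with them, 4 and 5 rose and 5 and 2 fell with agreement. A match describes these letters only and was not tested for receptor binding.

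**Figure D3:**
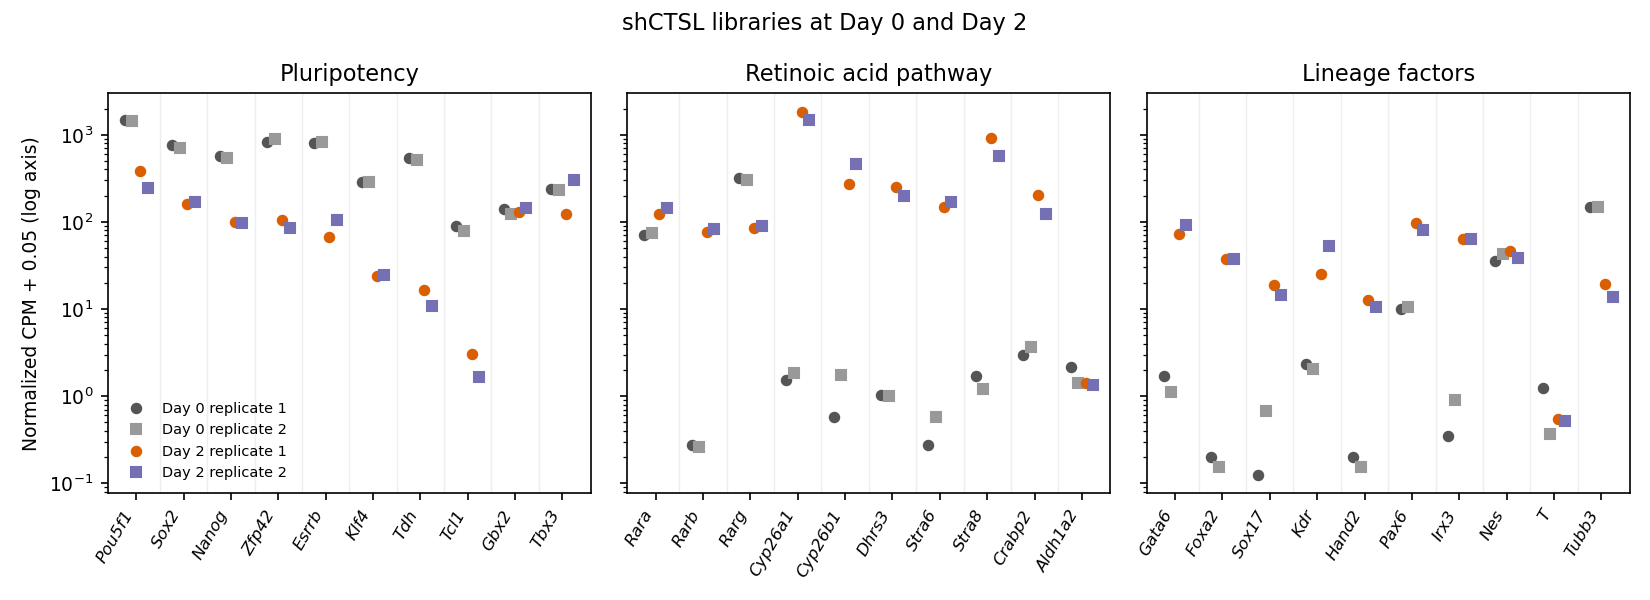
Normalized CPM with 0.05 added (y axis, log axis) of 30 genes in the 4 shCTSL libraries, with circles for replicate 1, squares for replicate 2, grey for Day 0 and colours for Day 2. Pluripotency factors other than Gbx2 and Tbx3 lie lower at Day 2 in both libraries, RA pathway genes other than Rarg and Aldh1a2 lie higher, and of the lineage factors Nes and T overlap between the days while Tubb3 lies lower.

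Hox genes, which encode the factors that set position along the body axis, changed as a family. Of 39 genes listed 31 rose with agreement and none fell. The count filter was passed by 35, of which the 31 are 88.6%, and as a silent gene passes it through its Day 2 counts, that share is no measure of the family. In the 31 no library of Day 0 exceeded 2.423 CPM, and the Day 2 values ran from 0.2554 to 365.4 CPM (not corrected for length). That the days do not overlap within any of the 31 is part of the agreement rule and no further result. By cluster the increases were 10 of 11 genes in Hoxa, 10 of 10 in Hoxb, 6 of 9 in Hoxc and 5 of 9 in Hoxd. By position 29 of the 30 genes of paralog groups 1 to 10 rose, against 2 of the 9 of groups 11 to 13, which lie at the 5′ ends of the clusters.

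Hoxb1, a direct target of RA at the 3′ end of its cluster, had 2 reads in all at Day 0 and 215.4 and 148.9 CPM at Day 2, a ratio of 2020 (558 to 16700). Hoxa5 had 3 reads at Day 0 and then 365.4 and 220.8 CPM (ratio 2140, 731 to 10400). Hoxb6 had no read at Day 0 and 134 and 87.99 CPM at Day 2, so it was at least 815-fold higher, taking 3 reads over both Day 0 libraries as the floor. Hoxc8, with 1 read at Day 0, reached 65.35 and 46.82 CPM (ratio 1250, 223 to 49200).

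At the 5′ ends, Hoxb13 rose from 0 and 0.5267 CPM to 95.63 and 57.25 CPM (adjusted p = 6.37e-07). Hoxa13 had no read at Day 0 and 0.3077 and 0.2554 CPM at Day 2, at least 2.11-fold more, and its call was lost without Day 0 replicate 1 (adjusted p = 0.0561). Hoxc13 (2.163 and 2.528 CPM, then 1.538 and 2.171 CPM) and Hoxd13 (2.76 and 3.581 CPM, then 3.323 and 3.32 CPM) were not called, nor were Hoxd10 and Hoxd11, which stayed under 1 CPM. Hoxa11, Hoxc11, Hoxc12 and Hoxd12 did not pass the filter and stayed under 1 CPM in the 4 libraries.

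**Figure D4:**
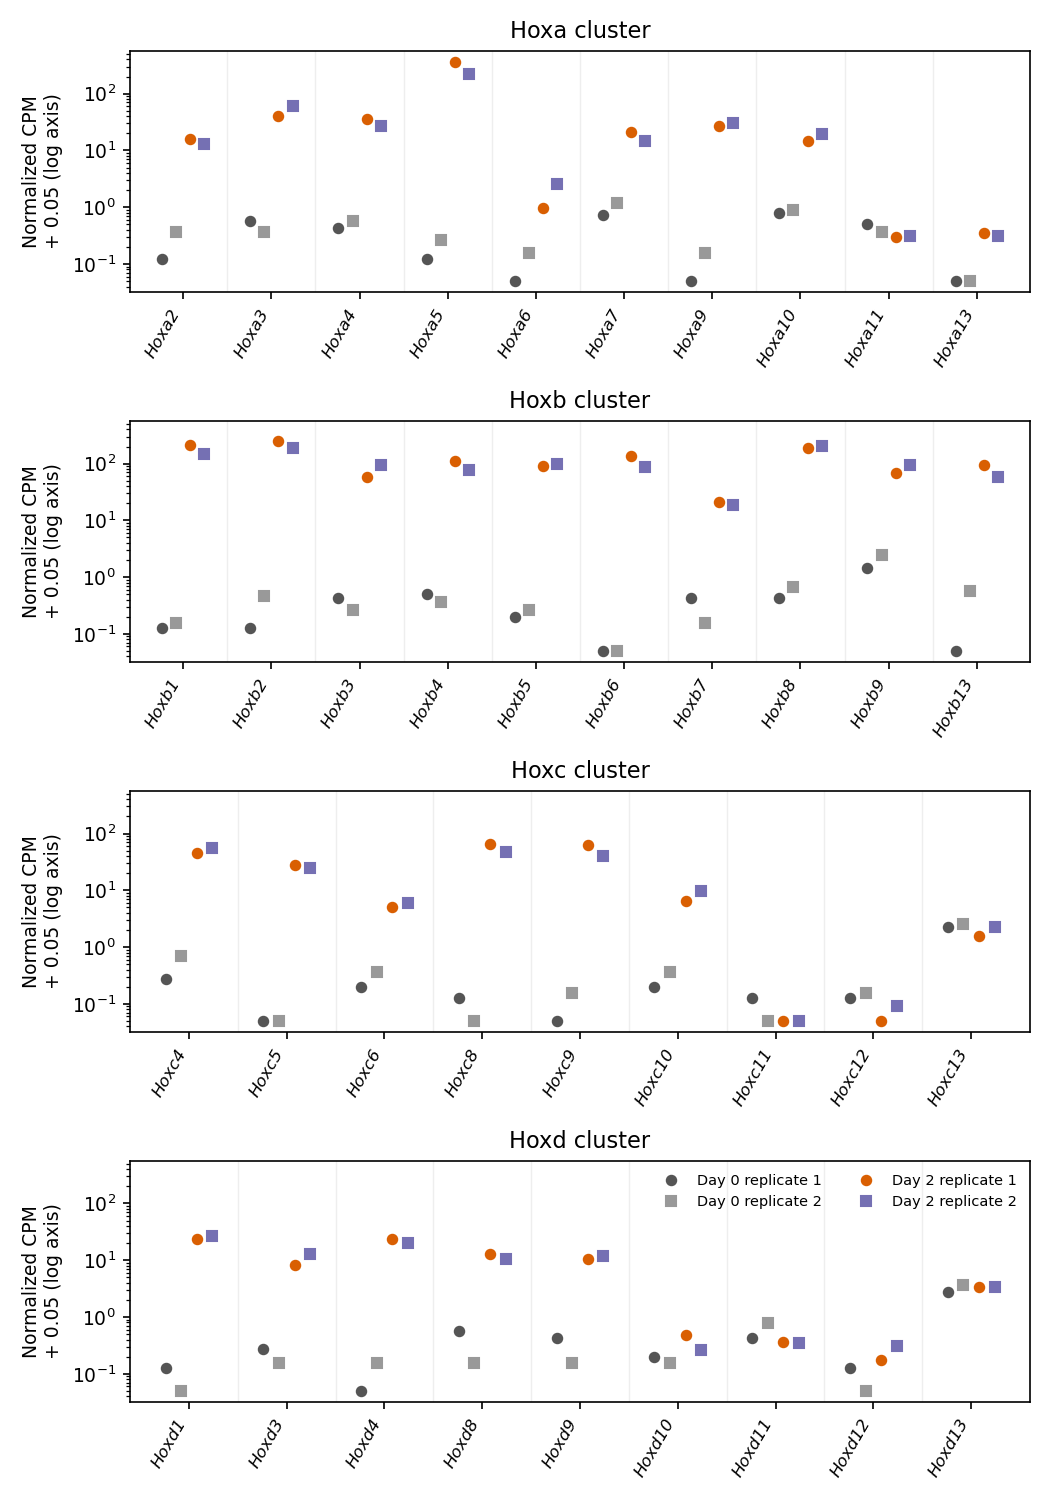
Normalized CPM with 0.05 added (y axis, log axis) of Hox genes in the 4 shCTSL libraries, 1 panel for each cluster, with the genes in order of their paralog number. In the genes shown that rose, both Day 2 libraries lie above both Day 0 libraries, and the Hoxc and Hoxd clusters end on the right in genes that were not tested or not called.

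The Meis and Pbx proteins, which bind DNA together with Hox proteins, rose with them. Of 9 genes tested, 7 rose with agreement (77.8%) and none fell, with a median log2 fold change of 2.48. Meis1 went from 3.804 and 3.687 CPM to 110.5 and 142.4 CPM (33.7-fold, adjusted p = 1.59e-08) and Meis2 from 4.401 and 4.951 CPM to 163.6 and 220.8 CPM (41.3-fold). Pknox1 stayed at 38.01 to 48.66 CPM over the 4 libraries and was not called.

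Endoderm transcription factors rose in 10 of 12 tested (83.3%), with a median log2 fold change of 4.12. Gata6, an early factor of primitive endoderm and one of the differentiation markers named by the study, went from 1.641 and 1.053 CPM to 72.24 and 91.01 CPM (58.6-fold, log2 fold change 5.87, SE 0.22, adjusted p = 2.88e-08). Foxa2, a pioneer factor of endoderm, had 3 reads at Day 0 and 37.72 and 37.46 CPM at Day 2 (ratio 287, 97.9 to 1390). Sox17 rose 52.3-fold, Foxa1 131-fold and Gata4 5.8-fold. That both Day 2 libraries lie above Day 0 in each case is part of the agreement rule. Foxa3 had 2.212 to 3.077 CPM over the 4 libraries and was not called.

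Proteins of the visceral and parietal endoderm, the layers that feed and enclose the early embryo, rose in 10 of 16 tested (62.5%), and none fell with agreement. The shares over all genes tested were 25.5% and 19.1%. Sparc lay lower in both Day 2 libraries, from 241.4 and 237 CPM to 179.5 and 190.1 CPM, under the fold required (log2 fold change −0.37). Apoe (0.55), Lrp2 (−0.03) and Thbd (−0.48, under 1 CPM) were not called. Apoa1 and Lama1 were called higher without agreement. Ttr, the plasma carrier of thyroxine and retinol, had no read at Day 0 and 16.25 and 8.003 CPM at Day 2, at least 86.8-fold higher. Afp, the fetal serum protein, had 1 read at Day 0 and 3.631 and 1.916 CPM at Day 2 (ratio 59.9, 10.5 to 2390). In summed level, the 6 markers Sox7, Sox17, Afp, Ttr, Apoa1 and Amn went from 6.714 and 6.847 CPM to 71.14 and 62.53 CPM. Of the Day 2 sums, the transcription factor gene Sox7 held 28.37 and 35.59 CPM and Sox17 18.58 and 14.52 CPM.

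Of 15 factors of the primitive streak and early mesoderm 11 were tested, and 3 rose and 3 fell, shares (27.3% each) near the background. T, which encodes Brachyury, had 1.194 and 0.316 CPM and then 0.4923 and 0.4682 CPM, overlapped between the days and was not called (adjusted p = 0.318). Evx1, a streak factor, fell from 2.462 and 2.001 CPM to 0 and 0.04257 CPM (adjusted p = 8.69e-05). Eomes rose 4.96-fold to 16.12 and 21.75 CPM, Cdx2 6.86-fold to 6.338 and 4.597 CPM, and Lhx1, a factor of intermediate mesoderm and of the organizer, from no read to 24.31 and 34.22 CPM, at least 230-fold.

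Genes of lateral mesoderm, heart and blood vessels rose in 13 of 16 tested (81.2%) and fell in 2, or in 1 without Day 2 replicate 1. Kdr, the VEGF receptor Flk1 named by the study as a marker of differentiation, had 2.313 and 2.001 CPM at Day 0 and 25.29 and 52.53 CPM at Day 2, or 17.9-fold more (log2 fold change 4.16, SE 0.35, adjusted p = 3.78e-06), with replicate 2 at 2.08 times replicate 1. Hand2, a factor of heart and limb mesoderm, had 3 reads at Day 0 and 12.68 and 10.51 CPM at Day 2 (ratio 87, 29.6 to 423). Cdh5, the cadherin of endothelium, rose 18.9-fold, and Flt1, another VEGF receptor, 16-fold, with 7.384 and 24.22 CPM at Day 2. Pecam1, an adhesion protein of endothelium that mESCs also express, fell 4.77-fold, from 62.36 and 58.57 CPM to 11.26 and 14 CPM.

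Neural genes gave shares near the background: of 17 genes 14 were tested, and 4 rose (28.6%) and 2 fell (14.3%). Nes, the intermediate filament nestin and a marker named by the study, had 35.43 and 42.24 CPM at Day 0 and 46.21 and 38.27 CPM at Day 2, which overlap (log2 fold change 0.12, SE 0.13, adjusted p = 0.439). Pax6, a factor of the neural tube and eye, rose 8.61-fold, from 9.996 and 10.53 CPM to 96.61 and 80.07 CPM (adjusted p = 6.75e-07), and Irx3 120-fold, from 0.2984 and 0.8427 CPM to 64.3 and 64.36 CPM. Tubb3, the neuronal beta tubulin, was lower at Day 2, with 146.4 and 148.9 CPM and then 19.2 and 13.75 CPM (9-fold, adjusted p = 4.36e-07). Neurod1, a factor of neuronal differentiation, fell 35.6-fold from 6.266 and 8.848 CPM.

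**Figure D5:**
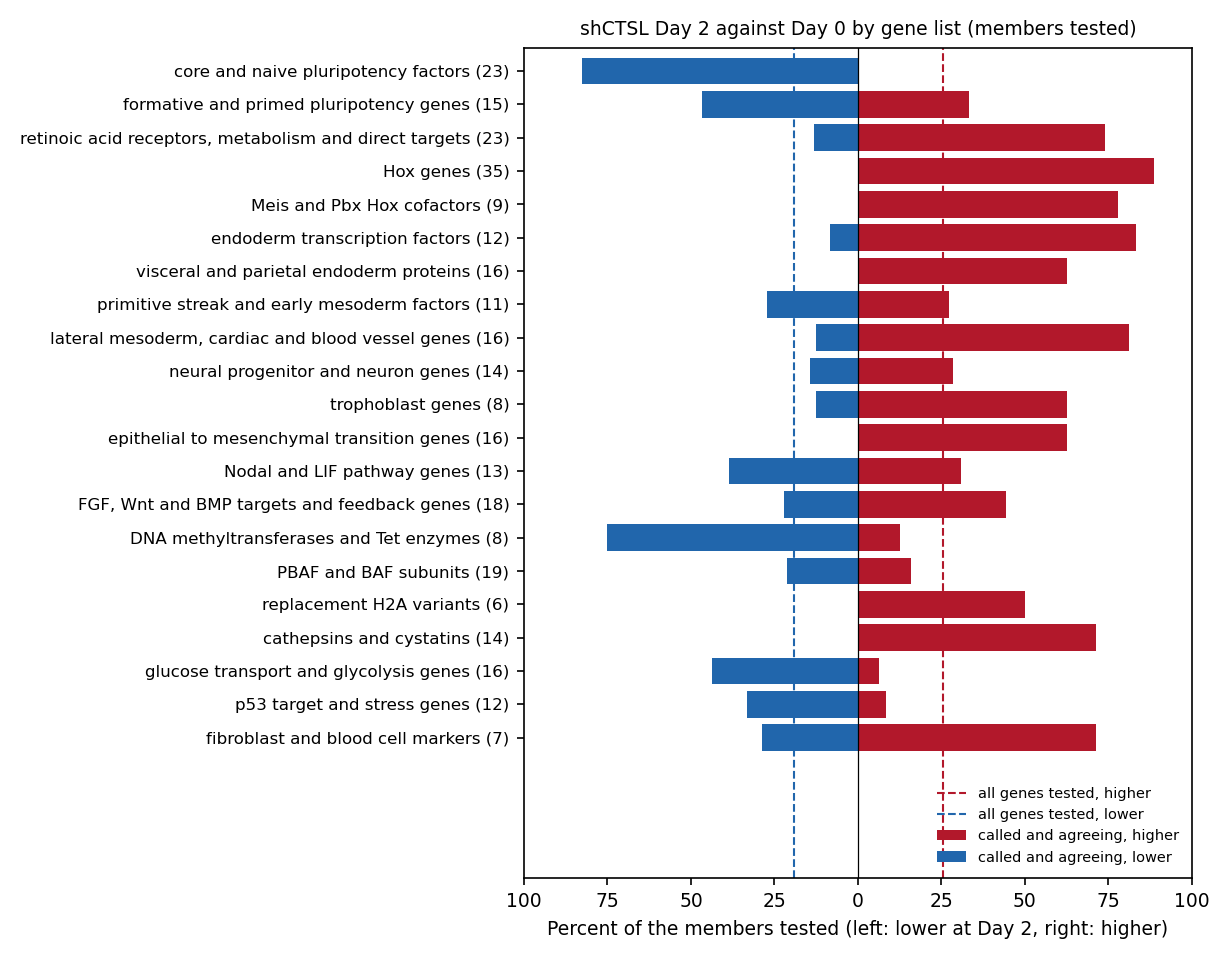
Percent of the tested members of each of 21 gene lists that were called with both Day 2 libraries agreeing, lower to the left and higher to the right (x axis), with the number tested in brackets and dashed lines at the shares over all genes tested (19.1% lower, 25.5% higher). Pluripotency factors reach 82.6% lower. Where genes were near 0 CPM at Day 0, as most Hox genes were, members passed the count filter through their Day 2 counts, so the bars to the right of such lists are not to be read against the dashed line.

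Of the genes of the epithelial to mesenchymal transition, 10 of 16 tested rose (62.5%) and none fell, or 11 rose and 1 fell without Day 2 replicate 2. Cdh1, which encodes E-cadherin, had 752.4 and 743.8 CPM at Day 0 and 398.3 and 646.1 CPM at Day 2, below both Day 0 libraries but under the fold required (log2 fold change −0.52, adjusted p = 0.0266). It was a called decrease without replicate 2 (−0.91, adjusted p = 3.27e-08). Cdh2, N-cadherin, rose 6.79-fold to 21.97 and 55.59 CPM, Cdh11 from 3 reads to 3.384 and 6.087 CPM (ratio 38, 12.8 to 186) and Snai1, a repressor of E-cadherin, 2.57-fold to 9.846 and 10.39 CPM. Genes of epithelia rose too: the keratins Krt18 (6.66-fold) and Krt8 (3.74-fold) and the claudins Cldn4 (2.11-fold) and Cldn6 (3.14-fold). The epithelial genes Epcam and Cldn7 were not called. Of the mesenchymal genes, Vim (log2 fold change 0.13) and Zeb1 (0.05) were not called, and Fn1 was called higher without agreement. The list pools genes of both states, so the share that rose gives no direction of the transition.

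Signalling genes moved in both directions. In the Nodal and LIF pathways 4 of 13 tested rose (30.8%) and 5 fell (38.5%), against 25.5% and 19.1% of all genes tested. The median log2 fold change of −0.57 became −0.80 without Day 2 replicate 2. Tdgf1, the Nodal coreceptor Cripto, fell 54.3-fold, from 612.5 and 579.8 CPM to 13.85 and 8.301 CPM (adjusted p = 9.54e-08), while Nodal itself stayed at 88.37 to 95.2 CPM over the 4 libraries (log2 fold change 0.09, adjusted p = 0.586). The Nodal antagonists Lefty1 and Lefty2 rose 11.4-fold (28.79 and 25.28 CPM, then 404.8 and 214.5 CPM) and 2.71-fold (67.66 and 66.36 CPM, then 198.2 and 164.5 CPM). The LIF receptor gene Lifr fell 5.12-fold, Stat3 2.31-fold and its target Socs3 12.8-fold, from 162.5 and 147.1 CPM to 11.32 and 12.81 CPM.

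Among targets and feedback genes of FGF, Wnt and BMP, 8 of 18 tested rose (44.4%) and 4 fell (22.2%). The shares over all genes tested were 25.5% and 19.1%. Spry4, a feedback inhibitor of FGF signalling, fell 21.3-fold, from 244.5 and 252.2 CPM to 8.923 and 14.17 CPM, and Spry2 6.63-fold. In contrast, Spry1 rose 2.45-fold with agreement, and Dusp6 (log2 fold change −0.01) was not called. Fgf4, the FGF ligand of mESCs, had 326.1 and 330.2 CPM and then 17.35 and 17.03 CPM (19.1-fold lower, adjusted p = 6.79e-09). Bmp4 fell 6.39-fold. Of the targets of BMP signalling, Id3 rose 7.39-fold to 363.6 and 226.5 CPM and Msx1 94.1-fold to 16.86 and 33.54 CPM. Id2 rose 1.94-fold, while Id1 (log2 fold change −0.14) and Id4 (0.02) were not called. The Wnt antagonist Dkk1 rose 11-fold to 6.215 and 5.406 CPM.

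Most genes for the writing and removal of DNA methylation fell. Of 9 DNA methyltransferases, Tet enzymes and partners, 8 were tested, and 6 fell (75%) and 1 rose, with a median log2 fold change of −1.81. Dnmt3l, a cofactor of de novo methylation, fell 18.4-fold, from 383.6 and 376.4 CPM to 24.25 and 17.2 CPM (adjusted p = 1.24e-07), and Dnmt3b 3.63-fold, from 253 and 248.8 CPM to 62.52 and 75.68 CPM. Tet1, which oxidizes methylcytosine, fell 12.4-fold, from 863.8 and 1097 CPM to 55.87 and 101.9 CPM, and Tet2 4.09-fold, while Tet3 rose 4.44-fold to 42.77 and 99.31 CPM. The last 2 differed by over 2-fold between the Day 2 libraries. Dnmt3a had 270.4 and 255.6 CPM and then 224.7 and 272.7 CPM, which overlap (adjusted p = 0.583).

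PBAF, a SWI/SNF remodelling complex that the study examined as a reader of acetylated H2A, and the related BAF complex changed in few subunits. Of 20, 19 were tested, and 3 rose (15.8%) and 4 fell (21.1%), shares near or under the background. The subunits particular to PBAF were not called. Pbrm1 had 224.5 and 278.6 CPM and then 170.3 and 195.9 CPM (log2 fold change −0.46, adjusted p = 0.01), and was a called decrease without Day 0 replicate 1 (−0.60, adjusted p = 0.00662). Brd7 had 188.5 and 200 CPM and then 169.3 and 156.9 CPM (−0.25, adjusted p = 0.0322), and Arid2 overlapped between the days at 121.2 to 184.2 CPM (adjusted p = 0.931). Of the exchangeable subunits, the ATPase gene Smarca2 rose 12-fold, from 2.163 and 3.055 CPM to 29.84 and 31.84 CPM (adjusted p = 1.59e-07), and Smarcc2 2.63-fold to 91.93 and 172.5 CPM. Dpf1 fell 6.25-fold, and Actl6a and Smarcd1 1.78- and 1.67-fold.

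Histone H2A is the substrate of cathepsin L that the study followed, and the genes of 6 replacement H2A variants were tested. The macroH2A genes H2afy and H2afy2 rose 3.18-fold (140.5 and 135 CPM, then 521.1 and 355.9 CPM, adjusted p = 1.33e-05) and 4.72-fold (22.01 and 20.22 CPM, then 92.98 and 106.4 CPM, adjusted p = 3.48e-07). H2afv, for an H2A.Z isoform, rose 2.9-fold. H2afz, for the other isoform, was called lower without agreement, with 74.08 and 63.41 CPM and then 46.15 and 20.77 CPM (log2 fold change −1.05, adjusted p = 0.00844), and the call was lost without Day 0 replicate 1 (−0.93, adjusted p = 0.0539) or Day 2 replicate 2 (−0.58). Of the 6, 3 rose (50%) and none fell with agreement, against 25.5% and 19.1% of all genes tested. The median log2 fold change of 0.63 became 0.16 without Day 2 replicate 1.

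Most tested cathepsins rose along with Ctsl. Of 19 cathepsins and cystatins, their inhibitors, listed, Ctsl included, 14 were tested, and 10 rose with agreement (71.4%) while none fell, with a median log2 fold change of 1.62. The shares over all genes tested were 25.5% and 19.1%. The other 5 listed were not tested, and a gene near silent at Day 0 passes the filter through its Day 2 counts. That share is therefore no measure of the family. Ctsb, a lysosomal cysteine protease, rose 2.17-fold from 112.3 and 110.2 CPM to 255.2 and 226.7 CPM (adjusted p = 4.66e-06). Ctsh rose 38.7-fold to 11.94 and 8.939 CPM, and Ctso, with 2 reads at Day 0, reached 5.107 and 4.384 CPM (ratio 53.6, 14.6 to 446). The aspartic protease Ctsd had 257.7 and 230 CPM and then 380.7 and 304.2 CPM, above Day 0 in both libraries but under the fold required (log2 fold change 0.49, adjusted p = 0.00731), and it was called without Day 2 replicate 2 (0.64). Of the cystatins, Cst3, cystatin C, rose 2.65-fold with 200.9 and 87.05 CPM at Day 2, and Cstb (63.14 and 38.78 CPM) was called higher without agreement, a call lost without either Day 0 library or without Day 2 replicate 1 (adjusted p from 0.0552 to 0.131).

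Markers of other cells that the EBs could hold were at low levels. The 7 fibroblast markers had a summed level of 12.08 and 11.17 CPM at Day 0 and 63.14 and 77 CPM at Day 2, with 5 called higher and 1 lower. The 4 blood cell markers went from 17.75 and 17.17 CPM to 6.954 and 7.279 CPM, and the globin genes Hba-a1 and Hbb-b1 had no read in the 4 libraries. Trophoblast markers summed to 1.567 and 0.948 CPM and then 5.969 and 4.214 CPM. The 6 mESC markers summed to 5125 and 5123 CPM at Day 0, as the label gives it, and to 1348 and 930.1 CPM at Day 2. The part of other cells in the changes above was not tested.

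Genes at 5 CPM or more were ranked by fitted log2 fold change, which is no measured fold for genes without a read at Day 0, so genes with larger measured ratios can lie outside the 12 highest. Beside Hoxb6, Hoxc5, Hoxa5, Hoxb1, Hoxc8, Lhx1, Ttr and Cyp26a1, the 12 highest hold Pyy, for the gut hormone peptide YY, from no read to 97.84 and 40.23 CPM (at least 487-fold). They also hold Chrna3, a neuronal acetylcholine receptor subunit (20.8 and 24.69 CPM, at least 176-fold), Reg4, a secreted lectin of the gut (23.32 and 11.62 CPM, at least 125-fold), and Hoxb5os, antisense to Hox genes of the b cluster (70.03 and 42.78 CPM, at least 412-fold). Whether the counting used strand is not given, so reads of Hoxb5os and of the genes it overlaps cannot be told apart.

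The lowest began with Chrna9, another acetylcholine receptor subunit, from 37.3 and 38.66 CPM to 0.3077 and 0.2554 CPM (log2 fold change −7.06, SE 0.23, adjusted p = 1.59e-08). The keratin Krt17 (−6.71), the growth factor Fgf17 (−6.25), the activin subunit Inhbb (−6.25) and the factor Pou4f2 (−6.22) followed. Inhbb went from 160.6 and 145.4 CPM to 1.6 and 2.341 CPM. The 12 lowest also hold Tdgf1, the arginine transporter Slc7a3 (−5.30, from 318.5 and 286.1 CPM to 8.43 and 6.938 CPM), Tdh, Tcl1 and Neurod1.

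Of the 1701 called genes whose Day 2 libraries did not agree, 838 were higher and 863 lower. Among called genes, 74.8% agreed in the shortest of the 10 length bins, 86.3% in bin 6 and 73.6% in the longest. Among those of them at 10 CPM or more, the widest gaps between the Day 2 libraries were in Rn45s (32520 and 4994 CPM, from 2472 and 5073 CPM) and in Usp9x, an X-linked deubiquitinase with long transcripts. Usp9x had 488.4 and 631.2 CPM at Day 0 and 78.7 and 370.9 CPM at Day 2, with 381.6 and 372.3 CPM in shSC Day 2. Its call (log2 fold change −1.31, adjusted p = 0.0491) was lost without either Day 0 library (adjusted p = 0.0809 and 0.176) and without Day 2 replicate 1 (−0.55). Ndst1, Sdk2, Irs2 and Ddi2 were each 3.71 to 4.17 times as high in replicate 2 as in replicate 1. Among all genes tested 12 were at least 1.5-fold higher in replicate 1 and at least 1.5-fold lower in replicate 2, and 46 the reverse.

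The same step in shSC, which shares no library with shCTSL, gave log2 fold changes that followed those of shCTSL across genes (Pearson's r of 0.917, given as a description over genes, which are not replicates). Whether this step differed between shCTSL and shSC was tested for each gene as an interaction, and edgeR called 0 of 15532 (0%). An unadjusted p under 0.05 was found for 1716 genes, and the smallest adjusted p was 0.176. The wide spread of the 2 shCTSL Day 2 libraries (SD of the log2 ratio 0.604) enters this test, so a count of 0 does not show that the lines moved alike. DESeq2 called 24. Without Day 2 replicate 1 of shCTSL 301 genes were called, and without replicate 2 4124 were, in fits that assume the lone library varies like those of the other groups. The smallest p belonged to Lefty2, with log2 fold changes of 1.44 in shCTSL and 0.18 in shSC (difference 1.25, SE 0.16, adjusted p = 0.176). In shSC it had 153.1 and 164.1 CPM at Day 0, above both Day 0 libraries of shCTSL, and 179.5 and 180.6 CPM at Day 2. Lefty1 differed by 1.94 (SE 0.34, adjusted p = 0.39), and the next genes by p were Nsg2, Egr1 and Dact2. Both Lefty genes were called with DESeq2, with no filter on low counts, with length offsets and without either shCTSL Day 2 library (Lefty2 between 1.11 and 1.38, Lefty1 between 1.41 and 2.33).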

How the data were processed

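Poly(A) RNA of CCE-Nanog-GFP mESCs and EBs was sequenced from directional libraries. Per the labels and the study's methods, the authors aligned to mm9 using STAR 2.3.0e. SAMtools 0.1.19 served to drop alignments of mapping quality below 10, mitochondrial ones and those off the assembled chromosomes, and featureCounts 1.6.2 gave a count for each RefSeq gene. The deposited values are raw counts, whole numbers without normalization. The strand setting of the counting was not found in the sources.

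The 12 libraries were fitted together in R 4.3.3 with edgeR 4.0.16 (quasi-likelihood method, TMM, a mean per group, 6 residual degrees of freedom, filterByExpr with a minimum count of 10), and p-values were adjusted by the Benjamini-Hochberg method over all 15532 genes. Agreement was judged on log2 of normalized CPM with 0.5 added. Folds against 3 or fewer Day 0 reads are ratios of pooled normalized counts with exact 95% intervals, or bounds on a floor of 3 reads, and cover counting error only. With 2 libraries a group the precision of each value rests on few samples. Exonic lengths and positions come from GENCODE M1 on mm9. A symbol or other name matched for 22269 of 24495 genes. Promoters were matched exactly to mm9. The fit was tested on simulated data. Alternatives used DESeq2 1.42.0, limma 3.58.1 with quality weights, other filters, cutoffs and scalings, offsets for length, and each library left out. Figures were drawn with matplotlib 3.10.9 (Python 3.11.15).

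Named are Ctsl, the 6 markers the study names for RNA-seq, the 12 highest and 12 lowest agreeing genes at 5 CPM or more without predicted loci and small RNAs, the 6 called but not agreeing genes at 10 CPM or more with the widest gap between the Day 2 libraries, the 6 genes with the smallest p for the line difference, and members of 21 gene lists with the largest changes or a readable role. The comparison, the agreement rule and the lists were chosen with earlier results of these data known. The 3 DR5 genes beside Cyp26a1 and Rarb and the one that fell were named after their values were seen. Some genes that these rules name are not reported here. The Day 4 libraries entered the fit only, and the study's ChIP-seq and proteomics were not used here.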

Additional observations from a re-analysis of the deposited data

Results flagged for a closer look

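For 4 named genes both Day 2 libraries lay beyond both Day 0 libraries in each line, but in opposite directions in shCTSL and shSC, and in none was the difference between the lines called by edgeR. Aldh1a2, an enzyme that makes RA, changed by −0.43 on the log2 scale in shCTSL and 0.54 in shSC, a difference of −0.98 (adjusted p = 0.394). Hoxd11 changed by −0.79 and 1, a difference of −1.80 (adjusted p = 0.44), at under 1 CPM in the 4 shCTSL libraries. Nodal changed by 0.09 and −0.06, a difference of 0.14 (adjusted p = 0.76). Usp9y, a Y-linked deubiquitinase, fell in shCTSL from 0.5968 and 1.159 CPM to 0.1846 and 0.2554 CPM (log2 fold change −1.87, SE 0.45, adjusted p = 0.00461) and changed by 2.56 in shSC, where it had 0.07624 and 0.06196 CPM and then 0.3983 and 0.4815 CPM, a difference of −4.42 (SE 0.77, adjusted p = 0.39).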

How the results depend on the processing

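The increase of Ctsl was called under every alternative tried, between 2.06 and 2.46 on the log2 scale over the libraries left out. Leaving out 1 library, with the lone library of its group assumed to vary like the others, gave 7692 to 9170 called genes, 6694 to 9087 with agreement (of 1 Day 2 library where the other was left out) and 0 to 4124 for the line difference. That last count was 24 with DESeq2 (11 higher, 13 lower), 4 with no filter on low counts, 2 with length offsets and 2 with limma-voom. At a log2 fold change of at least 1.5, 3981 genes were called (2874 higher, 1107 lower) and 3861 agreed, and with at least 2-fold in each Day 2 library 4218 agreed (2704 higher, 1514 lower). Length offsets took rho with exonic length to −0.0226, as they are built to do, and left 7351 agreeing genes. A fit of the 4 libraries alone gave 6333 agreeing genes and limma-voom 5787. Of 145 named genes run through the alternatives, 124 were called. Signs turned for 9 of the 145 in at least 1 alternative, of which Ndst1 was called (−0.09 to 2.01 over the libraries left out). The others, none of them called, ranged over the libraries left out from −0.92 to 0.39 (Tbx3), −0.82 to 0.44 (Dppa3), −0.04 to 0.17 (Gbx2), −0.11 to 0.27 (Hoxd13), −1.31 to 0.59 (T), 0 to 0.26 (Nes, just below 0 before rounding), −0.22 to 0.09 (Dnmt3a, 0 with length offsets) and −0.35 to 0.30 (Arid2, 0.02 with no filter). Tbx3 was called lower without Day 2 replicate 2, and Dppa3 without Day 2 replicate 1. The cause of these changes was not tested.

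Replicate numbers are shared by the groups in the labels, which do not say what they mark. The replicate 1 minus replicate 2 differences of shCTSL Day 0 and Day 2 had a correlation across genes of 0.257, and those of shSC −0.0222, so the numbers were not taken to pair samples. With the replicate block 8558 genes were called, 6917 with agreement, and 0 for the line difference, Ctsl stood at 2.25 (adjusted p = 3.2e-06), and 5 named genes (Apoa1, Irs2, Ndst1, Rn45s and Usp9x) were no longer called. Low counts at Day 0 limit the folds of genes silent in mESCs.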

Other observations

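Glucose metabolism moved in part. Of 16 genes of glucose transport and glycolysis, all tested, 7 fell with agreement (43.8%, against 19.1% of all genes tested) and 1 rose, or 8 and 2 without Day 2 replicate 1. Hk2, the inducible hexokinase, had 575.9 and 583.6 CPM at Day 0 and 100 and 130 CPM at Day 2, or 5.04-fold less (log2 fold change −2.33, SE 0.13, adjusted p = 2.53e-07). Ldha, the lactate dehydrogenase subunit of glycolytic cells, went from 1079 and 1038 CPM to 320.5 and 161.5 CPM (4.39-fold lower), while Ldhb, the subunit of oxidative tissues, rose 2.58-fold, from 78.18 and 67.31 CPM to 243.3 and 133.3 CPM. The glucose transporter gene Slc2a1 had 476.5 and 443.2 CPM and then 654.4 and 697.9 CPM, above Day 0 in both libraries but under the fold required (0.56, adjusted p = 0.00389), and it was called higher without Day 0 replicate 1 (0.61) or Day 2 replicate 1 (0.64).

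Of 12 p53 target and stress genes, all tested, and against 25.5% and 19.1% of all genes tested, 1 rose (8.33%) and 4 fell (33.3%). Without Day 2 replicate 1 these were 2 and 5, without replicate 2 they were 3 and 5, and with length offsets 2 and 4. Cdkn1a, the p21 inhibitor of the cell cycle, rose 1.74-fold, from 29.76 and 24.12 CPM to 46.95 and 47.04 CPM. Mdm2, which degrades p53, fell 1.92-fold, and Trib3, a target of the amino acid stress response, fell 9.12-fold, from 50.06 and 44.77 CPM to 5.292 and 5.108 CPM. Of 10 trophoblast genes 8 were tested, and 5 rose (62.5%) and 1 fell (12.5%), while Tfap2c was called lower without agreement. Plac1, a placental gene, went from no read to 1.477 and 1.192 CPM, at least 9.99-fold. Of 11 fibroblast and blood cell markers 7 were tested, and 5 rose (71.4%) and 2 fell (28.6%). The shares over all genes tested were 25.5% and 19.1%. In this list and the trophoblast list, genes silent at Day 0 passed the count filter through their Day 2 counts. Their shares are therefore no measure of either list. The matrix gene Dcn, among those that rose, went from no read to 1.292 and 2.043 CPM (at least 13.3-fold). The 2 that fell, the surface protein gene Thy1 and the macrophage marker Cd68, had 1.231 and 0.8939 CPM and 6.83 and 7.194 CPM at Day 2.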
